A study of Mus musculus with 12 samples.

Results

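Glutamate receptors, glutamate transporters and postsynaptic scaffolds were examined as 1 set of 38 genes, chosen by name and role, of 36131 genes in the count table. The set held 4 AMPA, 5 kainate and 7 NMDA receptor subunits, 1 delta receptor subunit, 7 metabotropic receptors, 8 scaffolds, the AMPA receptor auxiliary subunit Cacng2, 3 vesicular and 2 plasma membrane glutamate transporters. Every gene of the set matched 1 row of the table, and all 38 were among the 16688 genes with enough counts to test. At P18, 12 of 38 genes were lower and 1 was higher in retinas of oxygen-exposed placebo mice than in room air, at an adjusted p under 0.1, beside 6.42% lower and 6.00% higher of all genes tested. After the antibody IC100, 2 of the 38 genes, Gria3 and Grik2, were higher than in placebo retinas, beside 0.461% of all genes. Both were among the 12 lower genes, and the 2 comparisons share the placebo retinas, whose values enter them with opposite signs. These values come from 11 of 12 retinas. With the lens-rich retina of O2-IC100 animal 10 in the fit no gene of the set passed in any comparison. The IC100 calls were also lost without some other single retinas, and with the level of Y-linked genes as a covariate.

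RNA was sequenced from the retinas of 12 wildtype C57BL/6J mice in 3 groups of 4, with 1 library per animal. RA-PBS mice (animals 1 to 4) were raised in room air and given phosphate-buffered saline (PBS), O2-PBS mice (animals 5 to 8) breathed 75% O2 from P7 to P12 and received PBS, and O2-IC100 mice (animals 9 to 12) had the same oxygen exposure and received IC100 at 10 µg/g. IC100 is a humanized antibody against the inflammasome adaptor ASC, and the labels give injections of PBS or IC100 into the peritoneum on P12, P14 and P16. The study describes injection of placebo PBS into the vitreous in this model and gives no separate route for the sequenced groups. The placebo route is therefore not certain. Had it been the vitreous, antibody and injection route could not be told apart between O2-IC100 and O2-PBS. High oxygen followed by room air is the mouse model of oxygen-induced retinopathy, in which retinal capillaries are first lost and then regrow abnormally. Whole-retina RNA was used, so fewer cells of a type and less RNA per cell cannot be told apart in any value below.

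The libraries held 14907143 to 24438082 estimated counts. Rod markers took 4.15% to 5.16% of the counts in 11 libraries and 0.345% in O2-IC100 animal 10. Lens crystallin genes took 59.0% of the counts in animal 10 and at most 0.0158% in the O2-PBS retinas. In RA-PBS they took 0.00315% in animal 1, 1.25% in animal 2, 4.50% in animal 3 and 1.44% in animal 4. The 38 genes held 0.0379% of the counts in animal 10 and 0.462% to 0.575% in the others. Tests below were therefore fitted without animal 10, and the fit of all 12 retinas is given for each comparison and, in O2-IC100 against O2-PBS, for named genes whose direction it turned. Y-linked genes summed to 246 to 362 normalized CPM (counts scaled to equal library size) in RA-PBS animals 1 to 3, O2-PBS animal 8 and O2-IC100 animals 9, 11 and 12. They summed to 6.25 to 10.9 in RA-PBS animal 4 and O2-PBS animals 5 to 7, and to 4.04 in O2-IC100 animal 10. Y-linked genes were thus high in 3 of 4 RA-PBS, 1 of 4 O2-PBS and all 3 fitted O2-IC100 retinas. Animals of 1 group differed by more than counting noise, and p-values measure a spread that the fit pools over the 3 groups. Distances between retinas were unequal. The chi-square of counts per gene between 2 retinas was 35.6 to 96.2 in RA-PBS, 3.76 to 11.4 in O2-PBS and 5.12 to 6.67 in O2-IC100 without animal 10. It includes the crystallin genes, which differed widely between RA-PBS retinas, and is not the spread of each gene that the tests used. Because the fit pools the 3 groups, the p-values of O2-IC100 against O2-PBS also carry the spread of RA-PBS retinas.

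Glutamate is the transmitter of photoreceptors, bipolar cells and ganglion cells. Vesicular transporters load it into synaptic vesicles, AMPA, kainate and NMDA receptors are ion channels that it opens, and metabotropic receptors act through G proteins. ON bipolar cells receive photoreceptor input through the metabotropic receptor mGluR6, encoded by Grm6, whereas OFF bipolar cells use AMPA and kainate receptors. Scaffolds of the Dlg, Homer, Shank and Grip families hold receptors at the synapse, and plasma membrane transporters end the signal by uptake.

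Grik2 and Grik3 encode kainate receptor subunits that differed in opposite directions between O2-PBS and RA-PBS, and their promoters are shown for that reason (RefSeq, GRCm38.p6, 300 bases around the gene start, most of them upstream, 5′ to 3′ on the gene's strand). The Grik2 window lies on the minus strand at chr10:49788705-49789004 and the Grik3 window on the plus strand at chr4:125490446-125490745. Capitals mark ACGTG or GCGTG on either strand, the core of the hypoxia response element.
Grik2: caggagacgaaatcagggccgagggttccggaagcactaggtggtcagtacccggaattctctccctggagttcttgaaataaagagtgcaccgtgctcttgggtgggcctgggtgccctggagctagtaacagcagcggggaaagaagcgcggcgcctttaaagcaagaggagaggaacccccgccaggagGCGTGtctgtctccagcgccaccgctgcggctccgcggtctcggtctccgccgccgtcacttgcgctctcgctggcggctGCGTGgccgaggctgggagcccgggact
Grik3: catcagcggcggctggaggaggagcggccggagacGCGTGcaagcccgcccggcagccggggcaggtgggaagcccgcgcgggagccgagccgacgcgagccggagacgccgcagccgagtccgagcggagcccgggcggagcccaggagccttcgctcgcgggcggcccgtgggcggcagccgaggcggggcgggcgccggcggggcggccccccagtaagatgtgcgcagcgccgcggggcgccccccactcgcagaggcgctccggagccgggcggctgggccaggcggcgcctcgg

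The core was found 2 times in the Grik2 window and 1 time in that of Grik3. It was present in 18 of 38 promoter entries of the set (47.4%), which covered 27 of the 38 genes, and in 14380 of 32851 promoters of the same length (43.8%). The TATA motif TATAAA was in neither window, in 3 entries of the set (7.90%) and in 13.6% of all promoters. The GC content was 64.7% in the Grik2 window and 82% in the Grik3 window, beside a median of 60.8% over the entries of the set and 52.7% over all promoters. Promoters of Gria1, Gria3, Grik1, Grin2a, Grin2b, Grin3a, Grid1, Grm4, Grm5, Shank1 and Shank2 had no entry.

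Levels between genes were compared as normalized CPM per kilobase of transcript (CPM/kb), using the mean length of each gene's protein-coding transcripts. In RA-PBS retinas they spanned 909-fold, from 0.806 for Grm3 to 732 for Slc17a7, with a median of 12.6. Slc17a7 encodes the vesicular transporter VGLUT1 of photoreceptors and bipolar cells and stood first, at 732 ± 57.03 CPM/kb (SD, n = 4). The scaffold gene Dlg4, encoding PSD-95, was next at 470 ± 99.6 CPM/kb. Slc1a2, encoding the glutamate transporter GLT-1, followed at 102 ± 23.1 CPM/kb. Grm6 and Slc1a7, the latter encoding the transporter EAAT5, came after it at 69.1 ± 8.68 and 67.6 ± 3.79 CPM/kb, which did not differ beyond their spread. Ranks per kilobase also depend on the lengths, which were averaged over annotated transcripts without weights. In normalized CPM Slc1a2 (284 ± 64.3) and Grm6 (298 ± 37.4) did not differ beyond their spread in RA-PBS.

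Among ionotropic subunits the highest levels were close to each other. They were 34.2 ± 1.26 CPM/kb for the AMPA subunit gene Gria2, 33.1 ± 5.36 for the kainate subunit gene Grik1, 31.7 ± 3.26 for Grik5 and 30.4 ± 7.85 for Grin1, which encodes the obligatory NMDA subunit. These 4 values overlapped within their spread. The lowest NMDA subunit gene was Grin3b at 0.923 CPM/kb, for which 12 to 65 counts were recorded in the 11 retinas. The delta receptor gene Grid1 stood at 4.29 ± 0.544 CPM/kb and Cacng2, encoding stargazin, at 5.83 ± 0.663 CPM/kb. The coefficient of variation between RA-PBS retinas had a median of 14.4% and ran from 3.68% for Gria2 to 41.5% for Grin3b.

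**Figure D1:**
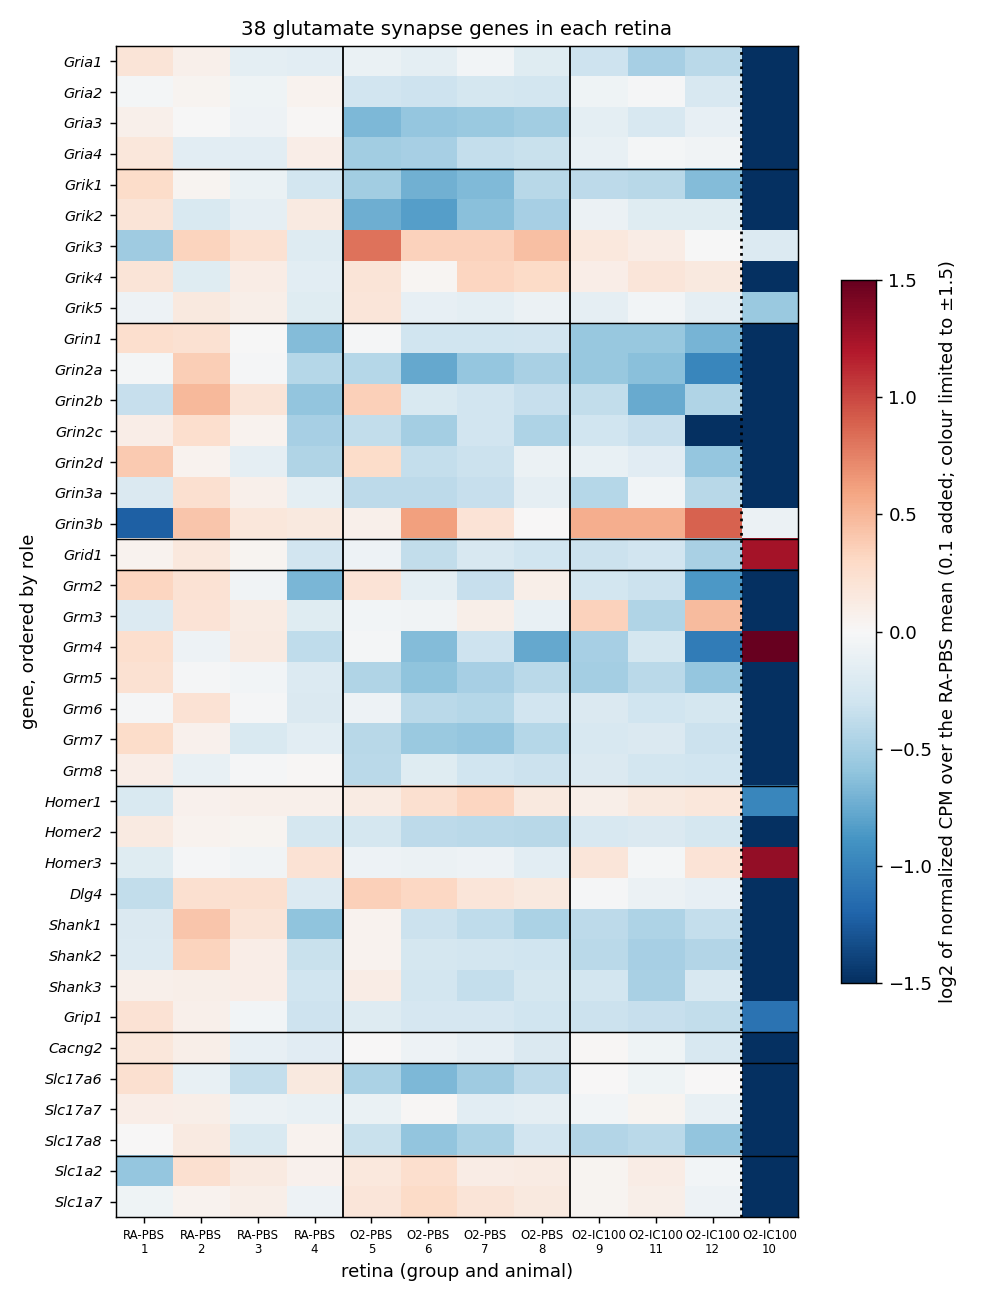
Level of each of the 38 genes (rows, ordered by role) in each retina (columns, by group and animal), as log2 of normalized CPM over the RA-PBS mean, with O2-IC100 animal 10 apart on the right. Blue prevails in the O2-PBS columns for Gria3, Gria4, Grik1, Grik2 and Slc17a6, and animal 10 is far below the other retinas for most genes but above them for Grid1, Grm4 and Homer3.

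O2-PBS was compared with RA-PBS to ask what oxygen exposure and the return to room air did to glutamate synapse transcripts. Of the 38 genes, 31 had lower and 7 had higher fitted means in O2-PBS. Their log2 fold changes had a median of -0.23, beside -0.01 over all 16688 genes. By edgeR's quasi-likelihood test with Benjamini-Hochberg adjustment, 12 genes fell and 1 rose at an adjusted p under 0.1, whereas 6.42% of all genes fell and 6.00% rose at that threshold. The genes that fell were Gria2, Gria3, Gria4, Grik1, Grik2, Grin2a, Grm5, Grm7, Grm8, Homer2, Slc17a6 and Slc17a8. With a fold change of at least 1.5 also required, as the study did, 1 gene (Grik2) was lower and none was higher, against 2.18% and 4.09% of all genes. At an unadjusted p under 0.05 there were 19 genes of the set and 21.9% of all genes. Without 1 retina at a time 10 to 17 genes had an adjusted p under 0.1, and those with a 1.5-fold change as well numbered 2 without RA-PBS animal 2 or O2-PBS animal 7, 3 without RA-PBS animal 4 or O2-PBS animal 5, and 4 without RA-PBS animal 3 or O2-PBS animal 8. Over all genes 1287 to 2702 had an adjusted p under 0.1 in those fits. In RA-PBS and O2-PBS retinas alone, fitted without any O2-IC100 retina, 12 of the 38 genes and 1452 of 16165 in all passed. Of the 12 genes, Gria2, Gria3, Gria4, Grik1, Grik2, Grm5, Grm7, Slc17a6 and Slc17a8 passed in 19 of 21 alternative fits, Homer2 in 18, and Grin2a and Grm8 in 16. No gene of the set passed in the fit of all 12 retinas, where 1 had an unadjusted p under 0.05, DESeq2 also gave 0, and Gria3 had the same log2 fold change of -0.58 with an adjusted p of 0.784.

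AMPA receptor subunits carry fast excitation, and 3 of 4 fell. Gria3, an X-linked gene, stood at 73.0, 68.8, 65.6 and 70.1 normalized CPM in RA-PBS animals 1 to 4 and at 43.6, 46.5, 47.0 and 48.2 in O2-PBS animals 5 to 8. The groups did not overlap, and the lowest room air retina was well above the highest placebo retina under oxygen. How many of all genes kept these groups apart was not counted, so overlap is given here and below as description only. Its log2 fold change was -0.58 ± 0.07 (SE), an adjusted p of 0.000295 by edgeR and the smallest of the set.

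Gria4 was measured at 137, 109, 109 and 130.2 normalized CPM in RA-PBS and at 84.4, 85.6, 94.3 and 96.3 in O2-PBS. Every O2-PBS value was below every RA-PBS value, and the log2 fold change was -0.43 ± 0.09 (adjusted p = 0.0108, edgeR). Gria2, whose subunit keeps AMPA receptors impermeable to calcium, fell less, from 242, 253, 236 and 255 to 202, 198, 205 and 204 (log2 fold change -0.28 ± 0.07, adjusted p = 0.0292). Replicates of Gria2 were tight, so that this small difference still left the groups apart. Gria1 read 75.1, 69.1, 59.3 and 58.4 in RA-PBS and 61.0, 59.4, 63.8 and 57.8 in O2-PBS, groups that overlapped, and did not pass.

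Kainate receptor subunits divided. Grik2 read 48.3, 36.0, 38.5 and 46.4 normalized CPM in RA-PBS and 25.3, 23.8, 27.2 and 29.9 in O2-PBS. The groups did not overlap, and the difference of -0.67 ± 0.11 in log2 (1.59-fold lower, adjusted p = 0.00253, edgeR) was the greatest decrease of the 38. Grik1, known from the dendrites of OFF bipolar cells, went from 129, 109, 99.6 and 88.1 to 74.1, 64.3, 67.2 and 80.0, a log2 fold change of -0.58 ± 0.12 (adjusted p = 0.00854). All O2-PBS retinas were below all RA-PBS retinas for this gene too.

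Grik3 was the only gene of the set that rose. It was at 10.4, 19.1, 17.7 and 13.3 normalized CPM in RA-PBS and 26.7, 19.2, 19.3 and 20.7 in O2-PBS. The groups barely separated, with RA-PBS animal 2 at 19.1 next to O2-PBS animal 6 at 19.2, and the log2 fold change was 0.50 ± 0.17 (adjusted p = 0.0978). It passed in 4 of 21 alternative fits. Without RA-PBS animal 1 it was 0.36, and without O2-PBS animal 5 it was 0.38 with an adjusted p of 0.289. Grik4 and Grik5, which encode the high-affinity subunits, did not pass (log2 fold changes 0.22 and -0.04).

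NMDA receptor subunits were spread widely between RA-PBS animals, and 1 of 7 fell. Grin2a read 21.4, 28.3, 21.6 and 16.173 normalized CPM in RA-PBS and 16.174, 12.8, 14.6 and 15.5 in O2-PBS. The groups met at RA-PBS animal 4 and O2-PBS animal 5, and the log2 fold change was -0.57 ± 0.16 (adjusted p = 0.0435, edgeR). With the level of Y-linked genes as a covariate it was -0.40 with an adjusted p of 0.197. Grin1 stood at 146, 144, 122 and 78.1 in RA-PBS and at 121, 99.9, 100.1 and 100.4 in O2-PBS, overlapping groups with a log2 fold change of -0.22 ± 0.16. The other 5 subunits had log2 fold changes from -0.41 for Grin2c to 0.26 for Grin3b, and none passed.

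All 7 metabotropic receptors had lower means in O2-PBS, and 3 fell. Grm5, a group I receptor coupled to phospholipase C, went from 38.4, 32.4, 31.9 and 28.3 normalized CPM in RA-PBS to 24.0, 21.6, 23.1 and 24.8 in O2-PBS (log2 fold change -0.49 ± 0.10, adjusted p = 0.0109, edgeR). Grm7, a presynaptic group III receptor, went from 30.1, 26.1, 21.3 and 22.4 to 18.8, 17.0, 16.7 and 18.5 (-0.49 ± 0.11, adjusted p = 0.0173). Grm8, another receptor of group III, was at 31.1, 27.0, 28.8 and 29.4 and then at 21.9, 25.5, 23.7 and 23.2 (-0.30 ± 0.08, adjusted p = 0.044). For each of these 3 genes the 2 groups did not overlap. The mGluR6 gene Grm6 read 295, 347, 294 and 256 in RA-PBS and 282, 226, 221 and 244 in O2-PBS. Its groups overlapped, and a log2 fold change of -0.29 ± 0.10 just missed the threshold (adjusted p = 0.107).

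Of 8 scaffold genes, 1 fell. Homer2, which links group I metabotropic receptors to their partners, read 37.2, 35.4, 35.0 and 28.4 normalized CPM in RA-PBS and 28.3, 26.0, 25.8 and 25.4 in O2-PBS (log2 fold change -0.37 ± 0.09, adjusted p = 0.0278, edgeR). RA-PBS animal 4 and O2-PBS animal 5 were almost level. Dlg4 ran the other way, with 757, 1162, 1156 and 852 in RA-PBS and 1259, 1218, 1114 and 1089.8 in O2-PBS. RA-PBS retinas 2 and 3 lay within the O2-PBS range and retinas 1 and 4 below it, and the log2 fold change of 0.25 ± 0.13 did not pass (adjusted p = 0.281). Homer1 was at 0.21 ± 0.09 in log2 and did not pass (adjusted p = 0.167), though all O2-PBS retinas were above all RA-PBS retinas. Homer3, Shank1, Shank2, Shank3 and Grip1 were between -0.27 and -0.10 without passing. Cacng2 read 36.3, 34.1, 29.5 and 28.6 in RA-PBS and 32.2, 30.5, 29.4 and 27.5 in O2-PBS, groups that overlapped.

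Among vesicular transporters 2 of 3 fell. Slc17a6, which encodes VGLUT2, the transporter of ganglion cells, read 97.3, 75.9, 64.1 and 91.2 normalized CPM in RA-PBS and 59.3, 51.4, 56.6 and 62.6 in O2-PBS (log2 fold change -0.52 ± 0.12, adjusted p = 0.0153, edgeR). Slc17a8, encoding VGLUT3 of a class of amacrine cells, went from 26.1, 28.5, 22.2 and 27.0 to 20.6, 17.2, 18.7 and 21.2 (-0.42 ± 0.11, adjusted p = 0.0281). Neither gene had overlapping groups. The abundant Slc17a7 was at 1878, 1855, 1644 and 1619 in RA-PBS and 1638, 1776, 1571 and 1591 in O2-PBS. Those groups overlapped, and its log2 fold change was -0.09 ± 0.09 (adjusted p = 0.59).

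The plasma membrane transporters had higher means in O2-PBS and did not pass. Slc1a2 read 191, 336, 312 and 298 normalized CPM in RA-PBS and 316, 338, 306 and 309 in O2-PBS, with a log2 fold change of 0.16 ± 0.14. RA-PBS animal 1 alone stood far below the other 7 retinas. Slc1a7 was at 203 ± 11.4 in RA-PBS and 234 ± 10.0 in O2-PBS (SD, n = 4 each), a log2 fold change of 0.20 ± 0.07 with an adjusted p of 0.12. For Slc1a7 all O2-PBS retinas were above all RA-PBS retinas.

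**Figure D2:**
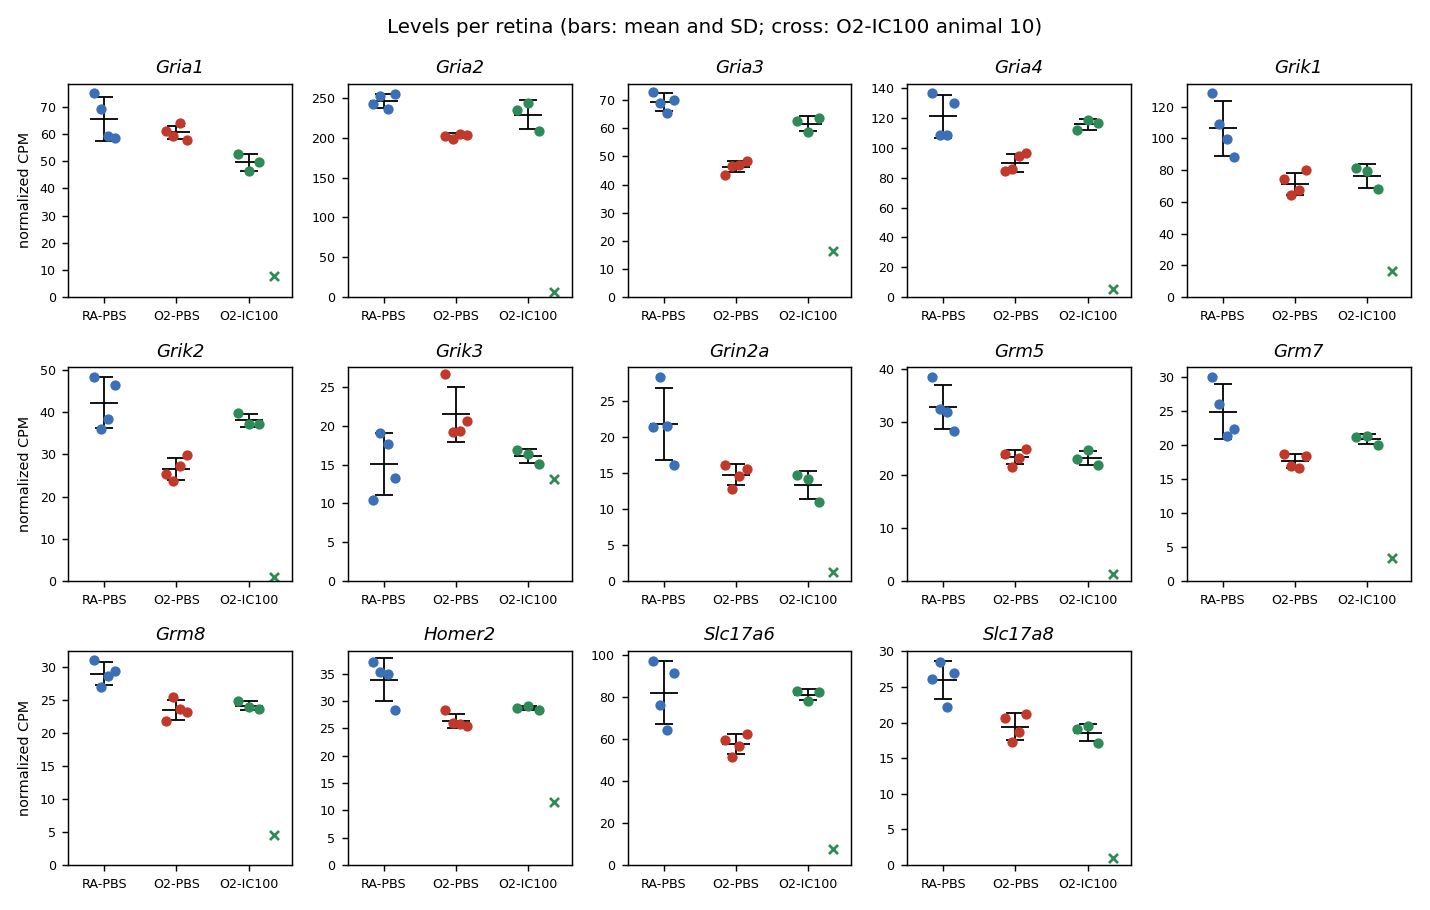
Normalized CPM per retina (points) of the 14 genes that had an adjusted p under 0.1 in any comparison, with group mean and SD as bars (n = 4, 4 and 3) and O2-IC100 animal 10, left out of the fit, as a cross. The O2-PBS mean lies below the RA-PBS mean for all genes shown except Grik3, and for Gria3 and Grik2 the 3 O2-IC100 points lie above all O2-PBS points.

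O2-IC100 was compared with O2-PBS to ask what the antibody changed after oxygen exposure. The 2 comparisons share the O2-PBS retinas, so their values enter both with opposite signs. Of the 38 genes, 2 rose (Gria3 and Grik2) and none fell at an adjusted p under 0.1, whereas 0.461% of all genes rose and 0.851% fell. With 1.5-fold also required, edgeR and DESeq2 on the same 11 retinas each called 0 genes of the set, beside 0.216% of all genes higher and 0.731% lower by edgeR, and 11 of the set and 19.2% of all genes had an unadjusted p under 0.05. Fitted means were higher for 16 and lower for 22 genes, with a median log2 fold change of -0.07 beside 0.00 over all genes. With animal 10 in the fit none passed, 2 had an unadjusted p under 0.05, and the means were higher for 7 and lower for 31 genes with a median of -0.35.

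Gria3 read 62.5, 58.6 and 63.6 normalized CPM in O2-IC100 animals 9, 11 and 12, all above the O2-PBS values of 43.6 to 48.2, with a log2 fold change of 0.41 ± 0.08 (adjusted p = 0.0381, edgeR). All 3 were below the lowest RA-PBS retina at 65.6. Grik2 read 39.9, 37.1 and 37.3, above the O2-PBS maximum of 29.9 and inside the RA-PBS range (0.52 ± 0.12, adjusted p = 0.0772). O2-PBS animal 8, with high Y-linked genes like these 3 animals, read 48.2 for Gria3 and 29.9 for Grik2. With the Y-linked level as a covariate the log2 fold changes were 0.39 and 0.52 with adjusted p-values of 0.119 and 0.128 (edgeR). In that fit 0 genes of the set passed, beside 39 of all genes. Animal 10 read 16.5 for Gria3 and 1.01 for Grik2, and with it in the fit the log2 fold changes were 0.12 and 0.11 (adjusted p = 0.835 and 0.933).

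Both calls also depended on single retinas, and they held in 13 (Gria3) and 11 (Grik2) of 21 alternative fits. Without O2-PBS animal 5 the adjusted p was 0.138 for Gria3 and 0.208 for Grik2, and without O2-IC100 animal 12 it was 0.218 and 0.274. The number of genes that passed was 0 without O2-PBS animal 5 or 7 or any 1 of the O2-IC100 animals, 1 without O2-PBS animal 6 or 8, 4 without RA-PBS animal 1, 2 or 3, and 6 without RA-PBS animal 4. The count over all genes moved with it, from 219 to 0 without any 1 O2-IC100 animal, 22 and 53 without O2-PBS animal 5 or 7, and 2140 without RA-PBS animal 4. Over these 11 fits the log2 fold changes stayed between 0.37 and 0.45 for Gria3 and between 0.47 and 0.58 for Grik2. When only the O2-PBS and O2-IC100 retinas were fitted, 14 of the 38 genes and 5557 of 16352 genes in all passed.

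Of the other genes that fell in O2-PBS, Slc17a6 came nearest to the threshold. It read 82.7, 78.2 and 82.5 normalized CPM in O2-IC100, above every O2-PBS retina, with a log2 fold change of 0.50 ± 0.12 and an adjusted p of 0.102. Gria4 followed at 112, 119 and 117, also above every O2-PBS retina (0.36 ± 0.10, adjusted p = 0.114). Gria2 at 235, 243 and 208, Grm7 at 21.2, 21.4 and 20.03 and Homer2 at 28.7, 29.2 and 28.4 each lay above all O2-PBS values in the 3 fitted retinas, with log2 fold changes of 0.18, 0.24 and 0.13 that did not pass. With animal 10, at 6.06 for Gria2, 3.41 for Grm7 and 11.6 for Homer2, the direction turned to -0.24, -0.10 and -0.10, and that of Gria4, at 5.68, to -0.04. Slc17a6 read 7.32 in animal 10, with a log2 fold change of 0.12. In the 3 fitted retinas Homer3 also lay above all O2-PBS values without passing. Gria1, Grik3, Grin1, Grin2b, Dlg4, Shank2, Grip1 and Slc1a7 lay below all O2-PBS values, also without passing. The share of all genes whose groups did not overlap was not counted.

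Grik1, Grin2a, Grm5, Grm8 and Slc17a8 overlapped with O2-PBS. They read 81.3, 79.6 and 67.8 normalized CPM for Grik1, 14.7, 14.2 and 11.1 for Grin2a, and 23.0, 24.7 and 21.9 for Grm5. Grm8 read 24.9, 24.0 and 23.6, and Slc17a8 read 19.0, 19.6 and 17.2. Log2 fold changes of these 5 genes were between -0.15 and 0.09, and those of Grik1 and Grm8 turned from 0.09 and 0.04 to -0.22 and -0.29 with animal 10, which read 16.8 for Grik1 and 1.26 for Grin2a. Animal 10 read 1.26 for Grm5, 4.54 for Grm8 and 1.01 for Slc17a8. Grik3, the gene that rose in O2-PBS, read 16.9, 16.4 and 15.1, below every O2-PBS retina, with a log2 fold change of -0.41 ± 0.19 that did not pass (adjusted p = 0.254), and 13.1 in animal 10. Gria1 read 52.7, 46.4 and 49.5, below all O2-PBS values of 57.8 to 63.8 (-0.29 ± 0.10, adjusted p = 0.181), and 7.70 in animal 10.

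The most abundant genes of the other roles did not pass. Dlg4 read 966, 925 and 899 normalized CPM in O2-IC100, below every O2-PBS retina (log2 fold change -0.33 ± 0.14, adjusted p = 0.236). Grin1 at 82.6, 83.0 and 75.7 was also below every O2-PBS retina (-0.39 ± 0.17, adjusted p = 0.242). Overlapping groups were seen for Grm6 at 257, 242 and 247, Slc17a7 at 1696, 1796 and 1614, and Slc1a2 at 292, 308 and 277. Grid1 at 19.6, 20.004 and 17.5 and Cacng2 at 32.5, 30.7 and 27.2 overlapped with O2-PBS as well, where Grid1 read 23.3, 19.0, 20.8 and 19.95, beside 25.4, 27.4, 25.2 and 20.1 in RA-PBS. In animal 10 the levels were 209 for Dlg4, 11.6 for Grin1, 11.0 for Grm6, 339.9 for Slc17a7, 29.0 for Slc1a2 and 3.03 for Cacng2. Grid1 was higher there, at 58.6, and with animal 10 its log2 fold change turned from -0.13 to 0.54, whereas those of Grm6, Slc17a7 and Cacng2 turned from 0.03, 0.05 and 0.01 to -0.37, -0.28 and -0.36.

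**Figure D3:**
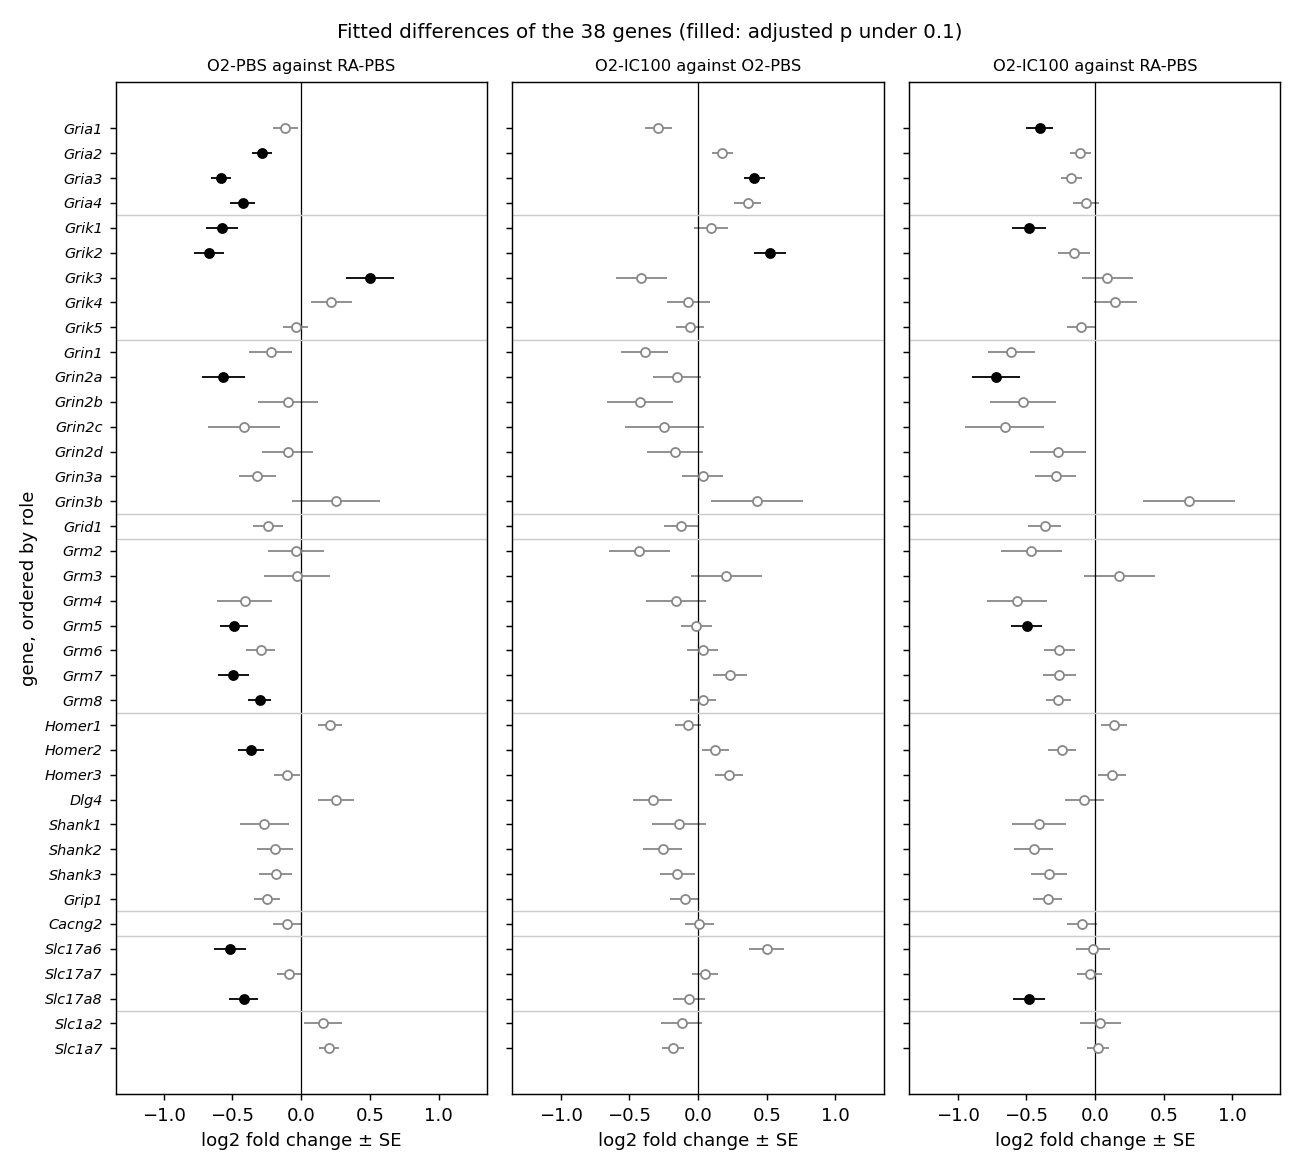
Fitted log2 fold change ± SE (x axis) of the 38 genes (y axis, ordered by role) in the 3 comparisons, from 11 retinas, with filled points for an adjusted p under 0.1. There are 13 filled points for O2-PBS against RA-PBS, 2 for O2-IC100 against O2-PBS and 5 for O2-IC100 against RA-PBS.

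O2-IC100 was set against RA-PBS to give the distance from room air. Here 5 of the 38 genes fell and none rose at an adjusted p under 0.1, beside 1.31% and 1.22% of all genes. With 1.5-fold also required, Grin2a alone was lower, beside 0.617% of all genes lower and 0.947% higher. Fitted means were lower for 30 and higher for 8 genes, with a median log2 fold change of -0.26 beside 0.02 over all genes, and 16 genes of the set and 15.6% of all genes had an unadjusted p under 0.05. The 5 genes were Grin2a (log2 fold change -0.72 ± 0.17, adjusted p = 0.0728, edgeR), Grm5 (-0.50 ± 0.11, adjusted p = 0.059), Grik1 (-0.48 ± 0.13, adjusted p = 0.0863), Slc17a8 (-0.48 ± 0.12, adjusted p = 0.0727) and Gria1 (-0.40 ± 0.10, adjusted p = 0.0752). In each of them all 3 O2-IC100 retinas were below all 4 RA-PBS retinas. These calls held in 9 (Grik1) to 14 (Grm5) of 21 alternative fits. Gria1 had not passed between O2-PBS and RA-PBS (log2 fold change -0.11, adjusted p = 0.503, edgeR), whereas the others had fallen there.

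Grik2 and Slc17a6 overlapped with RA-PBS, with log2 fold changes of -0.15 ± 0.12 and -0.02 ± 0.12. Gria3 was at -0.17 ± 0.08 with an adjusted p of 0.294, Gria4 at -0.06 ± 0.10 and Gria2 at -0.11 ± 0.08. A value that did not pass is not evidence of equal levels. The number of genes that passed was 0 without RA-PBS animal 2 or any 1 of the O2-IC100 animals, 1 without O2-PBS animal 7 or 8, 2 without O2-PBS animal 6, 3 without RA-PBS animal 1 and 18 without RA-PBS animal 4, and it was 0 with only the RA-PBS and O2-IC100 retinas in the fit. Over all genes the count went from 423 to 3175 without RA-PBS animal 4 and to 18 with only these 2 groups. In the fits of all 12 retinas by edgeR and by DESeq2 it was 0, with 5 genes of the set, and 13.2% of all genes, at an unadjusted p under 0.05 by edgeR.

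Other genes of glutamate synapses were described from 4 lists of 65 genes in all, each of which was tested. Between O2-PBS and RA-PBS, 14 fell and 2 rose at an adjusted p under 0.1, beside 6.42% and 6.00% of all genes, with a median log2 fold change of -0.19, and in the fit of all 12 retinas 0 passed. The lists of other receptors and auxiliary subunits (3 of 16 fell, 1 rose), other scaffolds and adhesion molecules (5 of 23 fell), synthesis, uptake and recycling (2 of 11 fell) and the mGluR6 cascade (4 of 15 fell, 1 rose) each held such genes. Cnih3, an AMPA receptor auxiliary gene, read 10.8, 6.09, 4.76 and 7.88 normalized CPM in RA-PBS and 4.84, 4.33, 4.81 and 3.31 in O2-PBS (log2 fold change -0.77 ± 0.23, adjusted p = 0.0565, edgeR), and its groups met at the low end of RA-PBS. Lrrtm2, encoding a postsynaptic adhesion molecule of excitatory synapses, read 32.2, 23.6, 22.3 and 38.8 and then 18.1, 16.5, 15.3 and 19.0, without overlap (-0.76 ± 0.16, adjusted p = 0.00993).

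The 2 genes that rose also kept the groups apart. Olfm2, a secreted protein found with AMPA receptors, read 40.9, 32.0, 44.0 and 34.7 normalized CPM in RA-PBS and 67.2, 59.6, 63.4 and 59.4 in O2-PBS (log2 fold change 0.72 ± 0.10, adjusted p = 0.000762, edgeR). In O2-IC100 it was 41.6, 43.7 and 42.5 and fell against O2-PBS by 0.55 ± 0.11 (adjusted p = 0.0478). It was the only one of the 65 genes to pass there, beside 0.461% of all genes higher and 0.851% lower. Olfm2 read 5.68 in animal 10, and with that retina in the fit 0 of the 65 genes passed. Gnb3, the G protein beta subunit of cones and ON bipolar cells, went from 360, 297, 314 and 301 to 474, 507, 523 and 452 (0.62 ± 0.09, adjusted p = 0.000852). In O2-IC100 it read 395, 414 and 423 and was still higher than in RA-PBS (0.37 ± 0.09, adjusted p = 0.081), whereas animal 10 read 98.2.

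Against RA-PBS, 4 of the 65 genes fell and 1 rose in O2-IC100, beside 1.31% and 1.22% of all genes. With 1.5-fold also required the single lower gene was Trpm1, the cation channel that mGluR6 controls, at 405, 477, 424 and 265 normalized CPM in RA-PBS and 262, 267 and 251 in O2-IC100 (log2 fold change -0.59 ± 0.16, adjusted p = 0.0994, edgeR). RA-PBS animal 4 overlapped with the O2-IC100 retinas. Animal 10 read 764 for Trpm1, above every other retina, and with it in the fit 0 of the 65 genes passed.

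Marker lists of retinal cell types also differed between groups. The bipolar markers Cabp5 and Trpm1 and the Müller glia markers Glul and Slc1a3 are also among the other glutamate synapse genes described above. Tfap2b is in both the amacrine and horizontal cell lists, and Rlbp1 in both the Müller glia and pigment epithelium lists. Between O2-PBS and RA-PBS, 5 of 11 bipolar, 3 of 10 amacrine and 5 of 11 ganglion cell markers fell at an adjusted p under 0.1. So did 2 of 6 horizontal cell and 5 of 10 Müller glia markers, beside 6.42% of all genes. In that order the lists had median log2 fold changes of -0.32, -0.32, -0.40, -0.34 and -0.43. Of the Müller glia markers, 1 also rose at that threshold, by at least 1.5-fold. Rod markers had 0 of 10 that passed (median 0.02) and cone markers 1 higher and 1 lower of 9 (median -0.09). In the fit of all 12 retinas 0 markers of these lists passed. Ganglion cell markers summed to 1167 to 1701 normalized CPM in RA-PBS, 944 to 1019 in O2-PBS and 1139 to 1177 in O2-IC100, so that the 3 O2-IC100 retinas were above the O2-PBS retinas. Bipolar markers summed to 1492 to 1793, 1342 to 1531 and 1353 to 1389.7, and amacrine markers to 1109.5 to 1540.1, 990.4 to 1085 and 1056 to 1113. Of 11 ganglion cell markers 10 had higher means in O2-IC100 than in O2-PBS (median 0.23), though none passed. With animal 10 in the fit 5 had higher and 6 had lower means (median -0.04). Ganglion cell markers summed to 269 normalized CPM in animal 10. The part of these cell types in the results for the receptor genes was not tested.

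**Figure D4:**
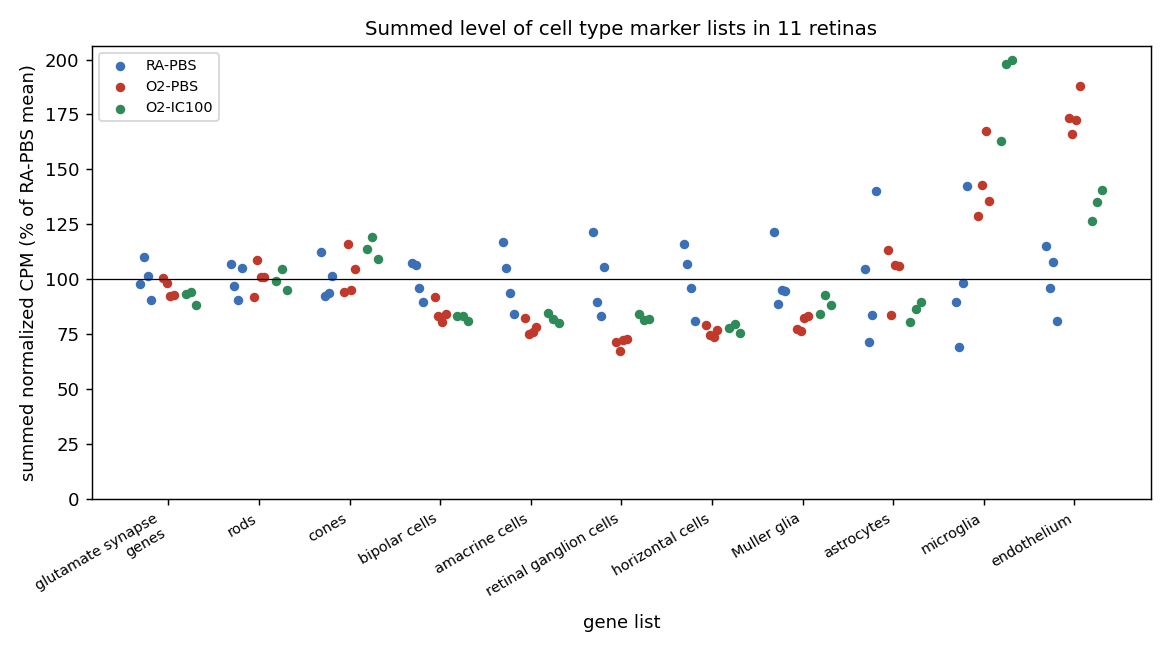
Summed normalized CPM of the 38 glutamate synapse genes and of 10 cell type marker lists in 11 retinas (points), as percent of the RA-PBS mean. Inner retinal neuron lists lie below 100% in O2-PBS, with ganglion cell markers higher in O2-IC100 than in O2-PBS, whereas rod markers scatter around 100% and endothelial markers stand above it.

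Microglial and endothelial markers rose in O2-PBS, 3 of 10 and 9 of 10, beside 6.00% of all genes. In the fit of all 12 retinas 0 microglial and 3 endothelial markers passed there. The endothelial sum was 209.8 to 298 normalized CPM in RA-PBS, 430.2 to 487 in O2-PBS and 327 to 365 in O2-IC100. The microglial sum was 56.7 to 117 in RA-PBS, 105 to 137 in O2-PBS and 133 to 163 in O2-IC100. There 6 of 10 markers were higher than in RA-PBS at an adjusted p under 0.1, beside 1.22% of all genes. With animal 10 in the fit 0 of them passed. For lens markers, all 15 tested passed as lower in O2-PBS, beside 6.42% of all genes, and 0 passed in the other comparisons by edgeR. Their sum was 10.2 normalized CPM in RA-PBS animal 1, inside the O2-PBS range of 5.44 to 111. RA-PBS animals 2, 3 and 4 stood at 10958, 41249 and 12733, so the lower level in O2-PBS rests on these 3 retinas. Retinal pigment epithelium markers summed to 598 to 702, 343 to 459 and 539.5 to 560 (O2-PBS against RA-PBS, 5 of 9 fell, beside 6.42% of all genes). In the fit of all 12 retinas 0 lens and 0 pigment epithelium markers passed between O2-PBS and RA-PBS. With the crystallin level as a covariate, 20 of the 38 genes passed between O2-PBS and RA-PBS, in which 5409 of all genes passed. With the Y-linked level as a covariate 10 of the 38 genes and 1480 of all genes passed, and the median log2 fold change of the set was -0.13.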

How the data were processed

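Per the labels and the study's methods, poly(A)-selected RNA was sequenced as paired 150 bp reads, and the authors estimated transcript abundance with kallisto against GRCm39 and summed it to genes with tximport. The deposited table holds expected counts (estimated counts, 42.2% of values not whole) of 36131 genes. Counts were rounded here and tested with edgeR 4.0.16 in R 4.3.3 (quasi-likelihood, TMM scaling, filterByExpr, robust), in 1 fit of the 3 groups over 16688 genes. O2-IC100 animal 10 was left out for its lens content, and DESeq2 1.42.0 was an alternative. P-values were adjusted over all genes tested by Benjamini-Hochberg. A gene passed at an adjusted p under 0.1, and was called where its fold change was also at least 1.5, the thresholds of the study. Normalized CPM are counts over TMM-scaled totals. Animal 10 is on the scale of all 12 retinas. Transcript lengths are from GENCODE vM21, and promoters from RefSeq. Promoter entries were matched by symbol for 27 genes.

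The 38 genes and the other lists were chosen with earlier results of these data known. Values in every retina are given for genes that passed in any comparison and for the gene with the highest level per kilobase in each role, and list genes are named where called. Animals carry different numbers in each group, so none were paired. Depth was 14907143 to 24438082 counts per retina. Alternatives were other tools, scalings, filters, covariates, samples and thresholds. Protein sequences were not used here.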

Additional observations from a re-analysis of the deposited data

Results flagged for a closer look

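For each of the 38 genes and each group of 4 retinas, Dixon's test asked whether the highest or lowest normalized CPM stood apart from the other 3. It marked 31 of 114 sets of values, where chance would mark about 5.7, and 25 of the 31 were O2-IC100 animal 10, the retina with 59.0% of its counts in crystallin genes. Animal 10 is on the scale of all 12 retinas and the others on that of 11, so the units are not quite alike. For O2-IC100 animal 9 the Y-linked sum was 315 on the scale of 11 and 283 on that of 12.

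Animal 10 was the lowest of its group for 35 genes and was marked by the test for 22 of them. Among receptor subunits it read 7.70 for Gria1, 6.06 for Gria2, 16.5 for Gria3, 5.68 for Gria4, 1.01 for Grik2, 0.379 for Grik4 and 11.6 for Grin1. Metabotropic receptors read 1.26 for Grm5, 11.0 for Grm6, 3.41 for Grm7 and 4.54 for Grm8. Scaffolds read 18.4 for Homer1, 11.6 for Homer2, 209 for Dlg4, 29.8 for Shank1, 26.6 for Shank2 and 32.2 for Grip1. Transporters read 7.32 for Slc17a6, 339.9 for Slc17a7, 1.01 for Slc17a8, 29.0 for Slc1a2 and 24.9 for Slc1a7. It was the highest of its group, and marked, for 3 genes, at 58.6 for Grid1, 78.9 for Grm4 and 93.0 for Homer3.

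The other 6 were spread over retinas. O2-PBS animal 5 was high for Grin1 (121), Grin2b (54.5) and Shank2 (117), and O2-PBS animal 8 was low for Homer3 (33.4). RA-PBS animal 1 was low for Homer1 (30.9) and RA-PBS animal 4 was low for Shank3 (41.3).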

How the results depend on the processing

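Over 20 results for single genes, none changed direction under any alternative. All 20 missed the threshold in the fits of all 12 retinas by edgeR and DESeq2. Other alternatives kept 20 of 20 (DESeq2 on 11 retinas, crystallin covariate), 19 of 20 (other scaling, filters or non-robust fit), 15 of 20 (Y-linked covariate) and 14 of 20 (only the 2 groups compared), and fits without 1 retina kept 11 to 20. Crystallin levels differed chiefly between RA-PBS animal 1 and RA-PBS animals 2 to 4, so the crystallin fit does not test the part of lens tissue. The causes were not tested.

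Genes called between O2-PBS and RA-PBS numbered 1, and 0 with all 12 animals by edgeR or DESeq2, 2 with at least 1 CPM in 3 animals, 3 with only the 2 groups compared, 11 with the crystallin covariate and 13 with no fold required, and 1 to 4 without 1 retina. Between O2-IC100 and RA-PBS there was 1, and 0 with all 12 animals by either tool or only the 2 groups, 2 by DESeq2 on 11 animals or with the Y-linked covariate, 8 with the crystallin covariate and 5 with no fold required, and 0 to 6 without 1 retina. Between O2-IC100 and O2-PBS there were 0, and 2 with no fold required. The median log2 fold change went from -0.07 to -0.35 (edgeR) and -0.36 (DESeq2) with all 12 animals for O2-IC100 against O2-PBS, from -0.26 to -0.50 and -0.52 for O2-IC100 against RA-PBS, and from -0.23 to -0.13 with the Y-linked covariate for O2-PBS against RA-PBS. Without 1 retina it was -0.29 to -0.14, -0.09 to 0.01 and -0.31 to -0.19 for O2-PBS against RA-PBS, O2-IC100 against O2-PBS and O2-IC100 against RA-PBS. Counts of genes with an adjusted p under 0.1, added after seeing the data, were 13, 2 and 5 in that order, 0 in each with all 12 animals, 15, 5 and 10 by DESeq2 on 11 animals, 12, 14 and 0 with only the 2 groups, 10, 0 and 7 with the Y-linked covariate, and 20, 5 and 15 with the crystallin covariate. Over all genes, for the same 3 comparisons in that order, 2074, 219 and 423 passed in the main fit and 2531, 1173 and 1139 by DESeq2 on 11 animals. With only the 2 groups they numbered 1452, 5557 and 18. The Y-linked covariate gave 1480, 39 and 743, and the crystallin covariate 5409, 789 and 2950. Grin3b, Grm3, Grin2c and Grik4 had the fewest counts.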
